A study of Homo sapiens with 17 samples.

Results

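The messenger RNAs (mRNAs) of cytoplasmic actin and of proteins that bind it were followed through 3 RNA fractions of HEK293T, a transformed human cell line of embryonic kidney origin. The 10 members were taken by gene symbol from the 18869 genes of the table, with no threshold on their values, and are ACTB, ACTG1, CFL1, PFN1, PFN2, TMSB10, TMSB4X, MYH9, MYH10 and ACTN4. All 10 were found, and all 10 had an average TPM (a level scaled to transcript length and to the total of the library) of at least 5 in both immunoprecipitations (IPs), the filter that left 9607 protein-coding genes (PCGs) for comparison.

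In Ribo-STAMP, the C-to-U editing enzyme APOBEC1 is fused to the small ribosomal subunit protein RPS2, so that RNAs in contact with ribosomes gain edits. RPS2-STAMP cells carried this fusion and Control-STAMP cells carried APOBEC1 alone, each as a stable line made with lentivirus. In all groups the construct was induced with 50 ng/ml doxycycline for 24 h before crosslinking in 0.1% formaldehyde, and RNA of the Input, of an IP of the nuclear poly(A) binding protein PABPN and of an IP of the cytoplasmic poly(A) binding protein PABPC was sequenced after depletion of ribosomal RNA. The 17 samples were 3 Input, 3 PABPN IP and 3 PABPC IP samples of RPS2-STAMP, and 3 Input, 3 PABPN IP and 2 PABPC IP samples of Control-STAMP. The edits therefore come from an enzyme introduced into a transformed line. By the authors' account the cells were fractionated, and the Input and both IPs are cytoplasmic, a step that the sample labels do not mention.

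Each gene has 1 normalized EPKM per fraction, which is the number of edits scaled to transcript length and library size in RPS2-STAMP after subtraction of the control, and 1 average TPM per fraction. These are the authors' pooled values. No replicate values, read counts or edit counts were analysed here, so the values below have no SD and no test, and no difference between fractions has a replicate check. The methods state the reads per library for the STAMP experiments as a group, not for each fraction, and edit numbers per gene were not analysed here. Because the RNA came from lysates of many cells, a lower level in every cell and expression in fewer cells cannot be told apart.

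The markers of the cell line were checked first. All 5 HEK293T markers looked for (NEFL, NEFM, VIM, CKB and LIN28B) were listed, with a summed TPM of 1228 (Input), 2791 (PABPC IP) and 1510 (PABPN IP), and CKB was the most abundant at 971 TPM in the Input. Of 13 markers of muscle, leukocytes, liver, fibroblasts and endothelium, 6 were listed, with a summed TPM of 6.55, 8.31 and 15.5 in the same order. The most abundant of them in the Input was the skeletal muscle actin ACTA1 at 2.14 TPM, and MYH11, the smooth muscle myosin heavy chain, was at 0.0135 TPM. ACTC1, ACTG2, DES, PTPRC, ALB, COL1A2 and PECAM1 were not among the genes of the table.

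Actin exists as single molecules and as filaments, and cells move, divide and keep their shape by building and dismantling those filaments. Thymosins hold actin monomers in reserve, profilins deliver monomers to growing filament ends, and cofilin severs old filaments. Nonmuscle myosin II pulls on filaments, and alpha-actinin ties them into bundles.

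The members lie at separate places of hg38, as annotated in GENCODE release 44. The beta-actin gene ACTB (ENSG00000075624) lies at chr7:5526409-5563902 on the minus strand, and the gamma-actin gene ACTG1 (ENSG00000184009) at chr17:81509413-81523847 on the minus strand. PFN1 (ENSG00000108518) lies at chr17:4945652-4949061 and PFN2 (ENSG00000070087) at chr3:149964904-150050788, both on the minus strand. The cofilin gene CFL1 (ENSG00000172757) lies at chr11:65823022-65862026 on the minus strand. The thymosin genes TMSB10 (ENSG00000034510, chr2:84905656-84906671) and TMSB4X (ENSG00000205542, chrX:12975110-12977227) are on the plus strand. The myosin heavy chain genes MYH9 (ENSG00000100345, chr22:36281280-36388010) and MYH10 (ENSG00000133026, chr17:8474207-8631376) are on the minus strand, and the alpha-actinin gene ACTN4 (ENSG00000130402, chr19:38647649-38731589) is on the plus strand. By the canonical transcript, the coding sequence is 135 bases in both thymosins, 423 bases in both profilins, 501 bases in CFL1 and 1128 bases in both actins, against 2736 bases in ACTN4, 5883 in MYH9 and 6024 in MYH10. The canonical transcripts of the thymosins and profilins have 3 exons, whereas those of MYH9 and MYH10 have 41 and 43.

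Edits are read at cytosines, and the coding sequences of paired members differ in how many they hold. The first 120 coding bases of both actins and the whole coding sequence of both thymosins are printed 5′ to 3′ from the GENCODE transcripts, with cytosines in capitals, because each pair is close in sequence and apart in its values.
ACTB: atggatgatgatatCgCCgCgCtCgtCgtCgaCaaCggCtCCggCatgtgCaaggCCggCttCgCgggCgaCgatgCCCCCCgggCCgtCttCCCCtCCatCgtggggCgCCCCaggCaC
ACTG1: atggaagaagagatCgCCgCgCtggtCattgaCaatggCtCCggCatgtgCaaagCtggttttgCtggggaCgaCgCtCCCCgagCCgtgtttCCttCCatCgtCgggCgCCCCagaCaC
TMSB10: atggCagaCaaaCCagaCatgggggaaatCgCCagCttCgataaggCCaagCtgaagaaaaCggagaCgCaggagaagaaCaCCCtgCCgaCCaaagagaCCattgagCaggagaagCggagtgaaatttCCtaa
TMSB4X: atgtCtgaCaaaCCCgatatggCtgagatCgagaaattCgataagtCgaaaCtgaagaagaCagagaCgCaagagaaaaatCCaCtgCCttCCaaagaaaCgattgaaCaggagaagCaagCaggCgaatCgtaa
The stretch shown has 45 cytosines in ACTB and 36 in ACTG1, and the thymosin coding sequences have 30 in TMSB10 and 26 in TMSB4X. Over the whole coding sequence the actins were nearly equal, with 373 cytosines in ACTB and 368 in ACTG1, and their 1128 aligned bases were identical at 1029 positions (91.2%). Identity was 72.6% for the thymosins, 60.3% for the profilins and 71.7% for the pair of myosin heavy chains. Cytosines made up 33.1% of coding bases in ACTB, the highest share of any member, and 19.3% in TMSB4X, the lowest, beside a median of 25.3% over 9601 PCGs with a coding sequence. Over the whole canonical transcript the order differed, with 121 cytosines in TMSB10 and 129 in TMSB4X. The highest share of transcript bases was 32.0% in PFN1 and the lowest 20.1% in PFN2.

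The actins, PFN1 and TMSB10 were among the most abundant RNAs of the cells. ACTG1 had the highest TPM of the members in each fraction, at 1967 (Input), 4121 (PABPC IP) and 1820 (PABPN IP). ACTB was close to it, at 1891, 3819 and 1610 in the same order. Both lay above the 99.7th percentile of PCGs in the 3 fractions.

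Among the proteins that bind monomers, PFN1 had an Input TPM of 1001, which compares with 2979 for PABPC and 1268 for PABPN. TMSB10 had 928, 2777 and 1407, lower than PFN1 in the Input and the PABPC IP and higher in the PABPN IP. CFL1 had 218, 629 and 246, and PFN2, a profilin prominent in the nervous system, had 146, 413 and 179. TMSB4X stood apart from its paralog, at 11.0, 34.5 and 15.6, so that the Input TPM of TMSB10 was 84.0 times as high.

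The mRNAs of proteins that pull on or bundle filaments were of moderate abundance. MYH9 had an Input TPM of 29.1, which compares with 24.3 for PABPC and 37.8 for PABPN. MYH10 had 18.1, 16.6 and 39.4, and ACTN4 had 46.4, 60.1 and 87.7. In each fraction 6 of the 10 members (both actins, both profilins, CFL1 and TMSB10) lay in the top decile of TPM, which holds 10% of PCGs by construction.

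**Figure D1:**
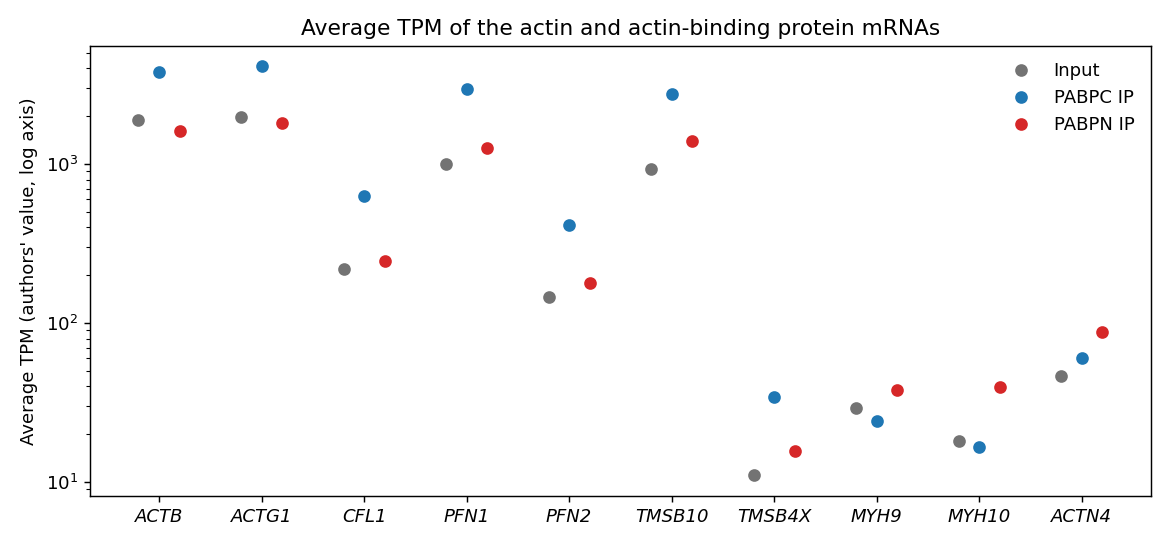
Average TPM of each member (log axis) in the Input (grey), PABPC IP (blue) and PABPN IP (red), each point being the authors' average for a fraction. In the 7 members from ACTB to TMSB4X the blue point is the highest of the 3, and in MYH9, MYH10 and ACTN4 the red point is the highest.

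Editing did not follow this order of abundance. ACTB had an EPKM of 0.889 (Input), 1.09 (PABPC IP) and 0.661 (PABPN IP), above the 99.7th percentile of PCGs in all 3. ACTG1 was listed at 0 in the Input, and its EPKM was 0.151 with PABPC and 0.0482 with PABPN. The EPKM of ACTB was therefore 7.24 times that of ACTG1 with PABPC and 13.7 times with PABPN, while its TPM was 0.927 and 0.885 times that of ACTG1. Whether the subtraction of the control took part in the value of 0 was not tested.

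The profilins were both edited, PFN1 at 1.04, 0.813 and 0.470 EPKM and PFN2 at 0.331, 0.118 and 0.189 EPKM in the Input, PABPC IP and PABPN IP. PFN1 lay above the 99.7th percentile of PCGs in each fraction. CFL1, whose TPM exceeded that of PFN2 in every fraction, had 0.0227 EPKM (Input), 0.00655 (PABPC IP) and 0 (PABPN IP). In the PABPC IP this placed CFL1 at the 21.0th percentile of PCGs.

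Both thymosin mRNAs had their highest EPKM in the Input. TMSB10 had 1.31 EPKM there, the highest value of any member in any fraction, against 0.184 with PABPC and 0.0935 with PABPN. TMSB4X had 0.860 and 0.220 EPKM in the Input and the PABPC IP and was listed at 0 in the PABPN IP. Although their Input TPM differed 84.0-fold, their Input EPKM differed 1.53-fold.

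The motor and bundling mRNAs had the opposite order in part. MYH9 had 0.0666 EPKM (Input), 0.124 (PABPC IP) and 0.362 in the PABPN IP, where it reached the 99.4th percentile of PCGs. ACTN4 likewise had 0.0402, 0.114 and 0.241 EPKM, the last at the 98.1st percentile. MYH10, the second nonmuscle myosin II heavy chain, stayed within 2-fold, at 0.0898, 0.0487 and 0.0828 EPKM. The PABPN IP EPKM of MYH9 was 4.38 times that of MYH10.

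**Figure D2:**
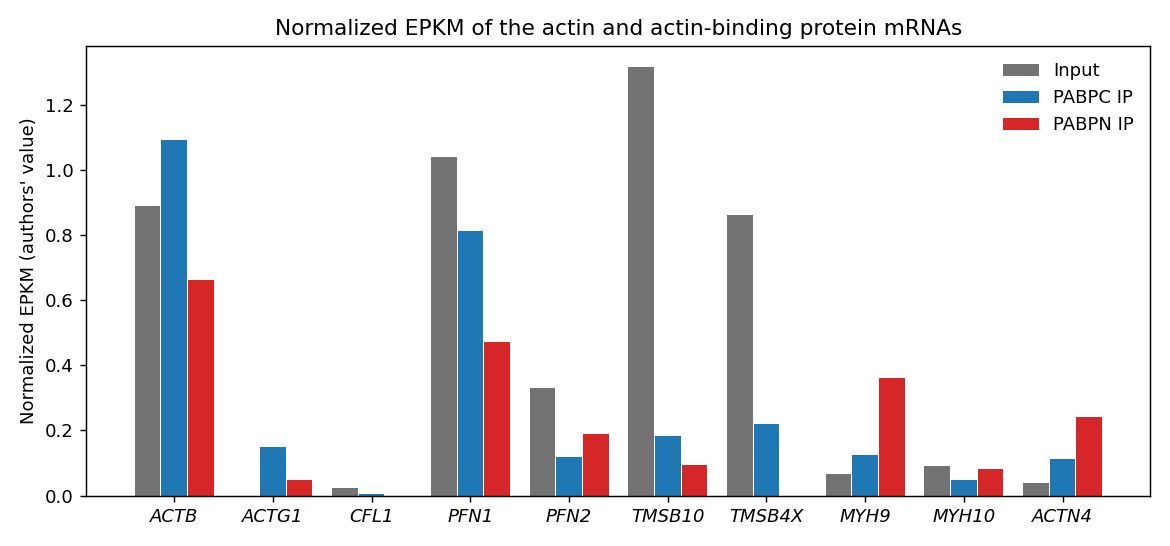
Normalized EPKM of each member in the Input (grey), PABPC IP (blue) and PABPN IP (red), as the authors' pooled value with no error available. TMSB10 in the Input (1.31) is the tallest bar, and in MYH9 and ACTN4 the red bar is the tallest of the 3. ACTG1 is listed at 0 in the Input, beside 21.9% of PCGs, and CFL1 and TMSB4X in the PABPN IP, beside 27.1%.

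In the top decile of EPKM were 5 members in the Input (ACTB, PFN1, PFN2, TMSB10 and TMSB4X), 4 for PABPC (ACTB, PFN1, TMSB10 and TMSB4X) and 5 for PABPN (ACTB, PFN1, PFN2, MYH9 and ACTN4). EPKM is not divided by abundance, and over PCGs the median Input EPKM was 0.00569 in the lowest decile of Input TPM and 0.177 in the highest. By the TPM deciles of each IP the span was smaller, from 0.0191 to 0.134 with PABPC and from 0.0114 to 0.0629 with PABPN. Members were therefore also ranked among PCGs of their own TPM decile, which was decided on once the values were known. ACTB was at the 97.9th percentile of its decile in the Input, the 99.1st with PABPC and the 99.3rd with PABPN, and PFN1 at the 98.5th, 97.7th and 98.2nd. PFN2 left the top decile by this ranking, at the 75.8th percentile in the Input and the 86.2nd with PABPN, and TMSB10 kept its place in the Input, at the 99.1st, but not with PABPC, at the 65.8th. TMSB4X was at the 99.9th percentile of its decile in the Input, the 99.2nd with PABPC and 0 with PABPN. Its decile rests on an uncertain TPM, and per 1000 TPM its Input EPKM was 77.8, against 1.42 in TMSB10. MYH9 was at the 57.1st percentile of its decile in the Input, the 92.6th with PABPC and the 99.7th with PABPN. ACTN4 was at the 25.2nd, 67.1st and 96.9th in the same order, and MYH10 at the 88.2nd, 57.3rd and 75.2nd. CFL1 was low in its decile, at the 12.6th percentile in the Input, the 11.3rd with PABPC and 0 with PABPN. ACTG1, listed at 0 in the Input and so at the bottom of its decile there, was at the 56.7th percentile with PABPC and the 42.7th with PABPN.

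The next comparison asked with which PABP each RNA was recovered. For each gene, average TPM with PABPC was divided by that with PABPN, and the log2 of this ratio was centred on its median over PCGs of -0.19, and a ratio beyond 0.5 was counted. The 7 mRNAs of actins and monomer-binding proteins were all higher in the PABPC IP, a share of members to be read beside 30.4% of PCGs. Their centred ratios lay close together, from 1.17 in TMSB10 to 1.55 in CFL1, with 1.44 in ACTB, 1.37 in ACTG1, 1.43 in PFN1, 1.40 in PFN2 and 1.34 in TMSB4X. MYH10 was the 1 member lower in the PABPC IP, at -1.05, beside 31.5% of PCGs, and MYH9 and ACTN4 were at -0.44 and -0.35. Without centring, 7 members were higher, beside 23.0% of PCGs, and 3 were lower (MYH9, MYH10 and ACTN4), beside 37.6%.

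The same members split by the length of the coding sequence, with 7 of at most 1128 bases and 3 of at least 2736 bases. Over 9601 PCGs the coding length and the centred ratio were correlated across genes, with a Spearman's rho of -0.62, where genes share libraries and are not independent replicates. Of the 3906 PCGs with coding sequences of up to 1128 bases, 54.9% were higher in the PABPC IP, and their median centred ratio was 0.59, against 1.40 for the 7 short members. Of the 1375 PCGs with at least 2736 coding bases, 79.6% were lower in the PABPC IP, with a median of -1.11, against -0.44 for the 3 long members. Each of the 10 members lay above the median of the PCGs in its length class, and this comparison was chosen after the values were seen. The class bounds were members' own lengths, so length was not matched within a class. The median coding length was 423 bases in the short members beside 720 in their class, and 5883 in the long members beside 3648. Whether members differ from PCGs of equal length was not tested.

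**Figure D3:**
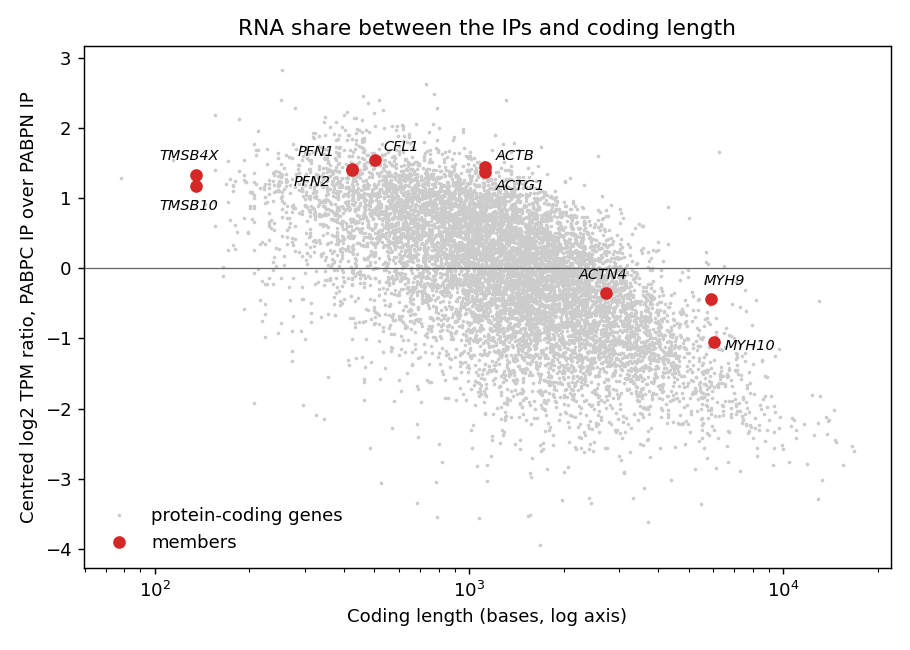
Centred log2 TPM ratio of the PABPC IP over the PABPN IP against coding length in bases (log axis) for PCGs (grey) and the 10 members (red). The 7 members of up to 1128 bases lie between 1.17 and 1.55, and ACTN4, MYH9 and MYH10 lie between -1.05 and -0.35.

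The comparison of editing between the IPs addressed whether RNA held by either PABP had more ribosome contact. On the log2(EPKM + 0.01) scale, which understates differences of low values, 2 members, ACTG1 and TMSB4X, exceeded their PABPN IP value at least 2-fold with PABPC, beside 36.3% of PCGs. For ACTG1 the difference was 1.46, and TMSB4X was listed at 0 in the PABPN IP. A further 2 members, MYH9 at -1.47 and ACTN4 at -1.02, were at least 2-fold lower in the PABPC IP, beside 21.1% of PCGs. At this threshold the share of members was below that of PCGs for higher values and close to it for lower ones. At 1.5-fold it was above that of PCGs both ways, with 6 members higher, beside 44.3%, and 4 lower, beside 26.8%. Besides ACTG1, TMSB4X, MYH9 and ACTN4, the members lay within 2-fold on this scale. ACTB was at 0.71, PFN1 at 0.78 and TMSB10 at 0.91, and PFN2 was at -0.64 and MYH10 at -0.66. CFL1, at 0.73, was also within 2-fold with the pseudocount of 0.01, though it had 0.00655 EPKM with PABPC and was listed at 0 with PABPN. With a pseudocount of 0.001 it was counted as higher, which made 3 members, beside 40.3% of PCGs.

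By sign alone, 6 members had more editing with PABPC, beside 56.4% of PCGs, and 4 had more with PABPN, beside 37.4%. The 4 were PFN2 and the 3 long members. The tally changed when abundance was taken into account. When EPKM was divided by the average TPM of the same fraction, a step added once the values were known, 4 members (ACTG1, CFL1, TMSB4X and MYH10) were higher with PABPC, beside 59.5% of PCGs, and 6 were lower, beside 34.4%. Which replicates and constructs entered the average TPM is not stated, so edits of RPS2-STAMP may be divided by a TPM that includes Control-STAMP. Per 1000 TPM, ACTB had 0.286 EPKM with PABPC and 0.411 with PABPN, PFN1 had 0.273 and 0.371, and PFN2 had 0.286 and 1.06. ACTG1 had 0.0366 and 0.0265, while CFL1 at 0.0104 and TMSB4X at 6.38 with PABPC were at 0 with PABPN. MYH10 turned the other way, at 2.94 with PABPC and 2.10 with PABPN, and TMSB10 was nearly equal at 0.0664 in both. MYH9 kept its direction, at 5.12 and 9.59, as did ACTN4 at 1.89 and 2.75. Coding length and the EPKM difference had a Spearman's rho of -0.05 over 9601 PCGs, and 20.7% of PCGs with at least 2736 coding bases were at least 2-fold lower in the PABPC IP.

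**Figure D4:**
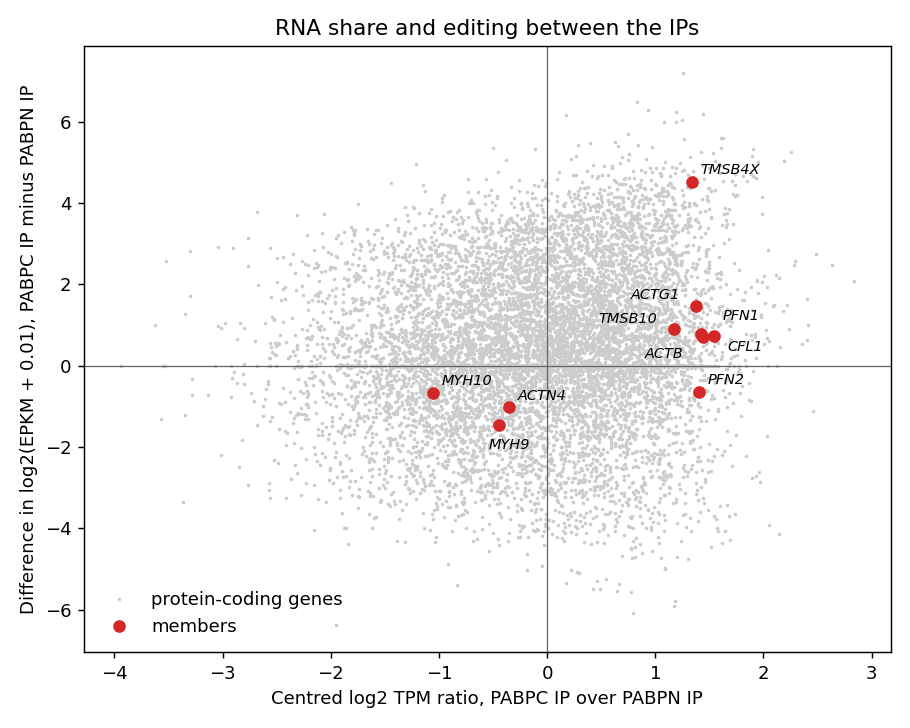
Difference in log2(EPKM + 0.01) between the PABPC IP and the PABPN IP against the centred log2 TPM ratio of the same IPs, for PCGs (grey) and the members (red). MYH9, MYH10 and ACTN4 lie at lower left with both values below 0, and 6 of the other 7 lie at upper right, with PFN2 at -0.64 below the zero line.

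Each IP was also set against the Input, which both share as their reference. With PABPC, EPKM exceeded that of the Input at least 2-fold in 2 members, ACTG1 (listed at 0 in the Input) and ACTN4 at 1.30, beside 35.1% of PCGs. PFN2 at -1.41, TMSB10 at -2.77 and TMSB4X at -1.92 were at least 2-fold lower, beside 19.5% of PCGs. In the PABPN IP, ACTG1, MYH9 at 2.28 and ACTN4 at 2.32 were at least 2-fold higher than in the Input, beside 28.4% of PCGs. CFL1, PFN1 at -1.13, TMSB10 at -3.68 and TMSB4X were at least 2-fold lower, beside 29.6% of PCGs, where CFL1 and TMSB4X were listed at 0 in the PABPN IP. The Input EPKM of TMSB10 was 7.13 times its PABPC IP value and 14.1 times its PABPN IP value.

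In average TPM, the ratio of either IP to the Input was above 1 for most genes, with a median log2 ratio of 0.99 for the PABPC IP and 1.14 for the PABPN IP, and calls were made relative to these medians. In the PABPC IP, 5 members were enriched over the Input (CFL1, PFN1, PFN2, TMSB10 and TMSB4X, from 0.51 to 0.65), beside 8.37% of PCGs, and the 3 long members were depleted (MYH9 at -1.25, MYH10 at -1.11 and ACTN4 at -0.62), beside 18.1%. Both actins lay near the median, at 0.03 in ACTB and 0.08 in ACTG1. In the PABPN IP, 0 members were enriched, beside 24.5% of PCGs, and 8 were depleted, beside 21.6%, with ACTB lowest at -1.37 and ACTG1 next at -1.25. MYH10 at -0.01 and ACTN4 at -0.22 were the others.

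These calls depended on the centring. Without it, at the same log2 threshold of 0.5, TPM with PABPC exceeded that of the Input in 7 members, beside 81.3% of PCGs. At this threshold 0 were lower, beside 0.885%. MYH9 at -0.26, MYH10 at -0.13 and ACTN4 at 0.37 lay within it. In the PABPN IP, 4 members (TMSB10, TMSB4X, MYH10 and ACTN4) were higher by this threshold without centring, beside 84.6% of PCGs. By the same threshold 0 were lower there, beside 0.583%. The uncentred log2 ratio of the PABPN IP to the Input was -0.23 in ACTB and -0.11 in ACTG1, which were the only members below 0.

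Other genes of the actin system were taken from 11 lists of 110 genes, of which 92 passed the TPM filter. Of the 92, 42 were higher in the PABPC IP by centred TPM ratio and 23 were lower, with a median of 0.42. The 42 are 45.7% of the 92, beside 30.4% of PCGs, and the share of PCGs that were lower was 31.5%. In EPKM, 26 had at least 2-fold higher and 27 at least 2-fold lower EPKM there, 28.3% and 29.3% of the 92 beside 36.3% and 21.1% of PCGs, with a median difference of -0.06 beside 0.32 over PCGs. The counts of each list below are of genes past the filter and are to be read beside these same shares of PCGs. The list of muscle and other actins had 0 of 6 genes past the filter.

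The Arp2/3 complex starts branches on existing filaments. All 9 genes of its list passed the filter, 6 were higher by TPM in the PABPC IP and 0 lower, whereas 5 had at least 2-fold lower and 2 at least 2-fold higher EPKM there. ARPC4 was listed at 0 EPKM for PABPC with 0.195 for PABPN, and ARPC3 had 0.114 EPKM for PABPC with 0 listed for PABPN. ARPC1A and ACTR2, the most abundant, had nearly equal EPKM in both IPs, 0.206 and 0.207 in ARPC1A and 0.225 and 0.240 in ACTR2.

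The list of monomer binding, severing and turnover holds relatives of CFL1 and the thymosins, other actin-binding proteins and regulators of cofilin. Of the 14 past the filter, 9 were higher by TPM in the PABPC IP and 3 lower, and 6 had at least 2-fold higher and 2 at least 2-fold lower EPKM there. COTL1 and TWF2 had 0.162 and 0.111 EPKM with PABPC, and both were listed at 0 with PABPN. CAP1 went the other way, at 0.104 with PABPC and 0.183 with PABPN. Among the relatives of CFL1, DSTN had 0.121 EPKM with PABPC and 0.0133 with PABPN, whereas CFL2, named here after its values were seen, had 0.0857 and 0.110.

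Capping proteins block filament ends, and of 9 such genes 4 were higher by TPM in the PABPC IP and 0 lower, while 0 had at least 2-fold higher and 3 at least 2-fold lower EPKM there. CAPZB had 0.0605 EPKM with PABPN and was listed at 0 with PABPC, and CAPG had 0.240 against 0.0488. Of the most abundant by TPM over the 3 fractions together, ADD1 had 0.0589 against 0.0415 and CAPZA1 had 0.105 against 0.196. Of the 20 nucleation and elongation genes past the filter, out of 23 in the list, 4 were higher and 9 lower by TPM, and 7 were higher and 6 lower by EPKM. BRK1, a small subunit of the WAVE complex with 228 coding bases, had a centred TPM ratio of 1.49, whereas FHOD1, a formin of 3495 coding bases, was at -0.51. BRK1 had 0.0912 EPKM with PABPC and 0.0727 with PABPN, and WASF2 had 0.141 and 0.0428. FHOD1 had 0.133 with PABPC and was listed at 0 with PABPN, and WASF1 was listed at 0 with PABPC and had 0.147 with PABPN.

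The crosslinking list included ACTN1, the paralog of ACTN4, and the filamins. Of its 14 genes, 13 passed the filter, of which 2 were higher and 6 lower by TPM with PABPC, and 4 were at least 2-fold higher and 4 at least 2-fold lower by EPKM. ACTN1 had 0.330 EPKM with PABPN, 0.0783 with PABPC and 0.0427 in the Input, the same order as in ACTN4. CTTN had 0.0904 EPKM with PABPN and 0.0105 with PABPC. FLNA, which crosslinks filaments into nets, had 0.149 and 0.138 EPKM with PABPN and PABPC, and its Input EPKM was listed at 0. PLS3, a bundling protein, had its highest EPKM in the Input, at 0.506, with 0.307 for PABPN and 0.227 for PABPC.

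Myosin II consists of heavy chains with light chains, which differ in length. Of the 11 genes in the list of chains and their regulators, 7 passed the filter, of which 5 were higher and 2 lower by TPM with PABPC, and 0 were at least 2-fold higher and 3 at least 2-fold lower by EPKM. The listed genes below the filter, MYH14, MYLK and PPP1R12A, named after their values were seen, had centred TPM ratios of -0.70, -1.07 and -1.46. The light chain MYL6 had a centred TPM ratio of 1.58, beside -0.44 in MYH9 and -1.05 in MYH10, and ROCK2, a kinase that activates myosin, was at -1.50. MYL6 had 0.245 EPKM (Input), 0.154 (PABPC IP) and 0.0852 (PABPN IP). The 3 genes lower by EPKM with PABPC were ROCK2 at 0.0114 against 0.124, the light chain MYL6B at 0.00623 against 0.0868, and the light chain MYL12A, named after its values were seen, at 0.00923 against 0.0320.

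Among 6 genes that link filaments to membranes and adhesions, 3 were higher and 2 lower by TPM and 1 was higher and 2 lower by EPKM. EZR was listed at 0 EPKM with PABPC and had 0.143 with PABPN, and MSN, its relative, had 0.0730 and 0.341. ZYX was the 1 that was higher, at 0.117 with PABPC and 0.0512 with PABPN. Tropomyosins coat filaments, and of the 3 past the filter, out of 4, 2 were higher by TPM in the PABPC IP and 0 lower, and 1 was at least 2-fold higher by EPKM and 0 lower. TPM4 had 0.0118 EPKM with PABPC and was listed at 0 with PABPN, and TPM3 had 0.0617 and 0.108. The transcription factor SRF, whose cofactors sense actin monomers, had 0.159 EPKM in the PABPC IP against 0.00973 in the PABPN IP. Of its list of 3, 1 was higher and 1 lower by TPM, and 2 were higher and 0 lower by EPKM. MRTFB had 0.0178 EPKM with PABPC and was listed at 0 with PABPN, and MRTFA had 0.0632 and 0.0756. The chaperonin CCT folds actin, and 6 of its 8 subunit genes were higher and 0 lower by TPM in the PABPC IP, with 3 higher and 2 lower by EPKM. TCP1 had 0.126 EPKM with PABPC and 0.00756 with PABPN, CCT3 had 0.237 and 0.0980, and CCT4 had 0.153 and 0.0963, whereas CCT5 was listed at 0 with PABPC and had 0.0229 with PABPN.

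**Figure D5:**
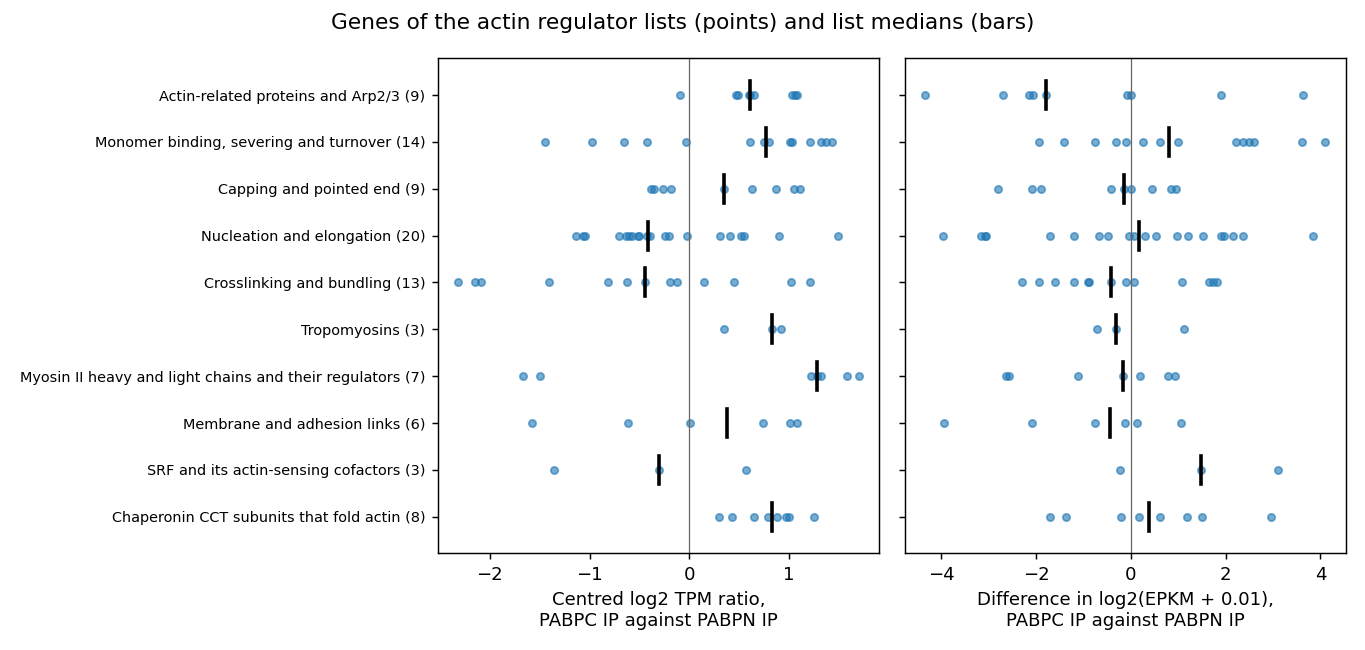
Centred log2 TPM ratio (left) and difference in log2(EPKM + 0.01) (right) of the PABPC IP against the PABPN IP for the genes of each list past the TPM filter only, with a bar at the list median and the number of genes in brackets. The myosin II list has the highest TPM median, at 1.28, and the Arp2/3 list the lowest EPKM median, at -1.80.

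The genes nearest to a member were found by Euclidean distance over 6 values, log2(EPKM + 0.01) and log2(TPM + 0.5) in the 3 fractions. Nearest to ACTB were RPS3A (distance 1.20), PFN1 (1.24) and GAPDH (1.29), all highly abundant and highly edited. For ACTG1 the nearest were EEF1G (2.39), RPLP0 (2.86) and H2BC12 (3.26), farther off than those of ACTB. EEF1G, with a TPM of 4416 in the PABPC IP, had 0.0795 EPKM there. The nearest to TMSB4X were CFD (1.53), TNNT1 (2.22) and ARMT1 (2.34), each listed at 0 EPKM in the PABPN IP. Levels that a member and its nearest genes share follow from the choice, since these 6 values set the distance.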

How the data were processed

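HEK293T RNA of 3 fractions was sequenced in 17 samples. Per the submitters' processing notes and the methods, STAR alignment to hg38 by the authors was followed by counting with featureCounts 2.0.2. The deposited normalized EPKM is a signal from which the authors subtracted the control; no value lies below 0, and how negative differences were handled and replicates combined is not stated. The deposited TPM are averages by the authors per fraction, made of exonic and intronic reads with an annotation freed of overlapping regions and readthrough transcripts. Members with pseudogene copies (ACTB, ACTG1, CFL1, PFN1, TMSB10, TMSB4X and ACTN4) have uncertain values. Reads that also fit a copy may have been left out of the count or placed on the copy. Reads in overlapped regions may have been lost as well, and neither was tested. Other genes of GENCODE release 44, on either strand, overlap 100.0% of TMSB10, 71.7% of CFL1 and 67.9% of ACTG1, and at most 28.4% of any other member. Overlaps in the earlier GENCODE release from which the authors derived their annotation were not examined, and TMSB10 has a TPM in each fraction.

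Differences were taken on log2(EPKM + 0.01) with a 2-fold threshold, and log2 TPM ratios were centred on the median of 9607 PCGs with a threshold of 0.5. Pooled values allow no test over samples, and none was run. The members and lists were chosen with earlier results of these data known. Besides the members, the 2 most abundant genes of each list by TPM over the 3 fractions together were named. So were each list's 2 most different in EPKM between the IPs, genes near a member, markers of cell types, and processed copies. CFL2, MYH14, MYLK, PPP1R12A, MYL12A and CFL1P1 were added after their values were seen. Counting was tested on simulated data. Coding sequences come from GENCODE transcripts, and protein sequences were not analysed here. Alternatives changed pseudocount, threshold, centring and the genes ranked against. Values were computed with pandas 2.3.3, NumPy 2.4.6 and Biopython 1.88 under Python 3.11.15, and with SciPy 1.17.1 and matplotlib 3.10.9.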

Additional observations from a re-analysis of the deposited data

How the results depend on the processing

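Of 72 alternatives to 22 counts, 47 stayed within 1.5 times the count given and 25 did not. The share of PCGs called at the same setting stands in brackets. With a pseudocount of 0.1 EPKM, 1 member in place of 2 was higher (9.0%) and 1 in place of 2 lower (3.71%) with PABPC than with PABPN, 1 in place of 2 was higher with PABPC than in the Input (6.21%), and 2 in place of 4 were lower with PABPN than in the Input (7.11%). With a 1.5-fold threshold, 6 members were higher (44.3%) and 4 lower (26.8%) with PABPC than with PABPN, and 5 in place of 3 lower with PABPC than in the Input (25.7%). Counting any difference in EPKM per TPM, which was added once the values were known, gave 4 higher (59.5%) and 6 lower (34.4%) between the IPs. Counting any difference in EPKM gave 6 higher (56.4%) and 4 lower (37.4%) between the IPs, 4 higher (57.3%) and 6 lower (37.4%) with PABPC than in the Input, and 7 lower with PABPN than in the Input (47.3%).

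In TPM, 3 members in place of 1 were lower with PABPC than with PABPN without centring (37.6%) and with TPM rescaled to the same total (38.9%). Without centring, 0 in place of 3 were depleted in the PABPC IP (0.885%) and 0 in place of 8 in the PABPN IP (0.583%) against the Input, and after rescaling these counts were also 0 (1.73%) and 0 (1.08%). Enriched in the PABPN IP, in place of 0, were 4 without centring (84.6%) and 2 after rescaling (75.7%). A log2 threshold of 1 left 0 of 5 enriched in the PABPC IP (0.052%) and 2 of 8 depleted in the PABPN IP (5.15%). Ranked among the top decile of Input TPM, 2 members in place of 4 were in the top decile of EPKM in the PABPC IP. The count of 7 members higher with PABPC than with PABPN by TPM was 7 under each of its alternatives. Causes were not tested beyond what each setting changes by construction. No paired analysis was possible because every column is pooled over the samples, and leaving out replicates was not run for the same reason. The edits behind each EPKM were not analysed here, which leaves its counting error unknown, and counts of few members move by a large factor when 1 member crosses a threshold.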

Other observations

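The table lists 15 pseudogenes named as copies of a member, of 62 in GENCODE release 44, and 14 of them are processed copies, CFL1P1 being an unprocessed one. Of the 14, 9 (64.3%) had an EPKM above 0 in the PABPN IP and 0 in the other fractions, beside 28.0% of all 987 processed pseudogenes listed, which was looked at once the values were known. The copies of ACTB had the highest values, beside 0.661 EPKM of ACTB itself in the PABPN IP. They were at 0.618 EPKM there for ACTBP11, 0.579 for ACTBP2 and 0.433 for ACTBP15. All 3 were listed at 0 in the Input and the PABPC IP, where ACTB itself had 0.889 and 1.09. Their PABPN IP TPM was low, at 0.856, 3.07 and 1.45 in the same order, and 0 of the 9 processed copies with a TPM passed the TPM filter, beside 116 of the 680 processed pseudogenes with a TPM. TMSB4XP8 had 0.104 EPKM and a TPM of 32.1 in the PABPN IP, where TMSB4X was listed at 0 EPKM with a TPM of 15.6, and in the PABPC IP the copy had a TPM of 2.29 against 34.5. PFN1P1 had 0.197 EPKM and PFN1P11 had 0.110 EPKM in the PABPN IP. Whether reads of the parent mRNAs were placed on these copies was not tested.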
